A study of Arabidopsis thaliana with 12 samples.

Results

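The flavonoid and anthocyanin pathway of Arabidopsis thaliana was read as 37 genes fixed by locus, of 25383 loci that the array covers. They comprise 4 enzymes of phenylpropanoid entry, 5 early and 8 late flavonoid enzymes (the late set with its anthocyanin-decorating transferases and a transport protein), 4 further flavonoid glycosyltransferases, 4 MYB activators of the anthocyanin genes, 3 of the flavonol genes, 4 bHLH and WD40 partners, 1 repressor and 4 genes of the seed coat branch. All 37 had a probe on the array, 28 of them a single probe and 9 several. Of the 37, 27 were well above background on all 12 arrays and were tested, and 10 were not tested.

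Flavonoids are made from phenylalanine. The general phenylpropanoid enzymes PAL, C4H and 4CL give coumaroyl-CoA, chalcone synthase and the other early enzymes turn it into dihydroflavonols and flavonols, and DFR and LDOX lead on to the anthocyanin pigments. Glycosyl and acyl transferases then decorate the pigments, and the glutathione S-transferase TT19 is needed for their deposition in the vacuole. In Arabidopsis seedlings the early genes are known to respond to the flavonol regulators MYB11, MYB12 and MYB111, and the late genes to a complex of an R2R3-MYB such as MYB75 (PAP1), a bHLH protein such as TT8, GL3 or EGL3, and the WD40 protein TTG1, which the small MYB protein MYBL2 opposes.

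Total RNA came from whole Col-0 seedlings at 10 days, grown on plates in long days with no treatment, and was hybridised to Agilent arrays with 1 dye. Compared were wild-type seedlings (WT), the arf2-8 mutant of the auxin response factor ARF2 (written arf2), the double mutant gnc gnl of the paired class B GATA factors GNC and GNL, for which the labels give no alleles, and libraries labelled arf2-8 gnc gnl. Each genotype had 3 libraries from separate biological samples, so n = 3 throughout. The arrays had a 75th percentile of signal between 2062 and 2872, and their number limits the precision.

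The targeted genes matched the labels of arf2 and gnc gnl but not those of the third mutant. ARF2 was not well above background in arf2 replicates 1 and 2 and stood at 3.04% of the WT mean in replicate 3. GNC stood at 4.42%, 5.90% and 3.92% in the gnc gnl libraries, in which GNL (CGA1 in the annotation) was not well above background. In the third mutant's libraries GNC stood at 6.38%, 5.66% and 5.62%, but ARF2 at 56.7%, 54.4% and 70.6% and GNL at 168%, 180% and 180%. All 3 lay below the lowest WT library for ARF2 (95.1%) and above the highest for GNL (114%). Of all tested genes, 15.4% and 14.5% showed these patterns. Neither gene passed the test there. The test shares 1 spread over the 4 genotypes, which for these genes includes mutant libraries not well above background. This group is named below by its label (the libraries labelled arf2 gnc gnl), and no value from it is read as that of a triple mutant.

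Markers of tissues were read as well. Over 13 seed markers the mean log2 level lay between -4.78 and -3.86 in WT, -0.49 and -0.05 in arf2, -3.15 and -0.13 in gnc gnl, and -2.22 and 0.46 in those labelled arf2 gnc gnl, on the scale of log2 intensity minus the array's 75th percentile. Of these markers, 9 rose in arf2, 6 in gnc gnl and 7 in the labelled libraries against WT, where 5.69%, 24.6% and 2.27% of all tested genes changed. In a WT library 7 to 9 of them were well above background, against 10 to 13 in a mutant library. Of 14 root markers, 2 fell in arf2 and 4 rose in gnc gnl, where 3.20% of all tested genes fell and 12.6% rose, respectively. In arf2, 3 of the 14 lay above WT (median log2 change -0.29), and in gnc gnl 12 did (median 0.33). Of 7 green leaf markers none passed in arf2 (all 7 lay above WT, at a median log2 change of 0.26) while LHCB2.1 fell in gnc gnl. The part of tissue makeup in the results below was not tested, and in whole seedlings fewer cells of a type and less RNA per cell cannot be told apart.

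In arf2, most enzymes of the pathway stood above WT, from chalcone synthase to the last steps of anthocyanin decoration, together with the activator gene MYB75. A total of 14 of the 27 tested members rose and none fell, where 5.69% of the 18976 tested genes changed (2.49% higher and 3.20% lower) by the moderated test of limma, with p adjusted after Benjamini and Hochberg over all tested genes and a threshold of 0.05. The median log2 change was 0.57 over the members and -0.0029 over all tested genes. All 3 arf2 libraries lay above all 3 WT libraries for 19 members, and 11.6% of all tested genes showed that pattern. A fit with slide as a block and a fit within slide 1 were not separate checks. Slide 1 holds the 3 WT arrays and arf2 replicate 1, so both set that 1 arf2 array against WT. Each gave a median log2 change of 0.80, with 24 of the 27 members above WT. Neither speaks for arf2 as a group.

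The number of members called in arf2 moved with single libraries. It ran from 5, without arf2 replicate 1, to 17. With WT replicate 1 left out it was 7, with WT replicate 2 or 3 left out it was 6, with arf2 replicate 2 left out it was 7, and with labelled replicate 1 or 2 left out it was 9. F3'H, 3AT2, MYB75, F3H and FLS1 were called in each of these 12 fits, and all 14 kept a positive change in each. Under the normexp background correction 1 member was called, and the median log2 change over the members was 0.50.

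In gnc gnl the late anthocyanin enzymes and MYB75 also stood above WT, with smaller changes in the early enzymes. Here 13 of the 27 members rose and 1 fell, where 24.6% of all tested genes changed (12.6% higher and 11.9% lower), and the median log2 change was 0.36, against 0.0067 over all tested genes. The gnc gnl libraries lay wholly above WT for 15 members and wholly below for 3, patterns that 22.1% and 20.4% of all tested genes showed. No slide held both genotypes, and with slide as a block, which links them only through other genotypes, 0 members were called. The count was 7 without WT replicate 2, 8 without gnc gnl replicate 2 and 4 under the normexp background correction. Under that correction the median log2 change over the members fell to 0.22. Both mutants were set against the same 3 WT arrays, so their values stand side by side below and their likeness is not a result.

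**Figure D1:**
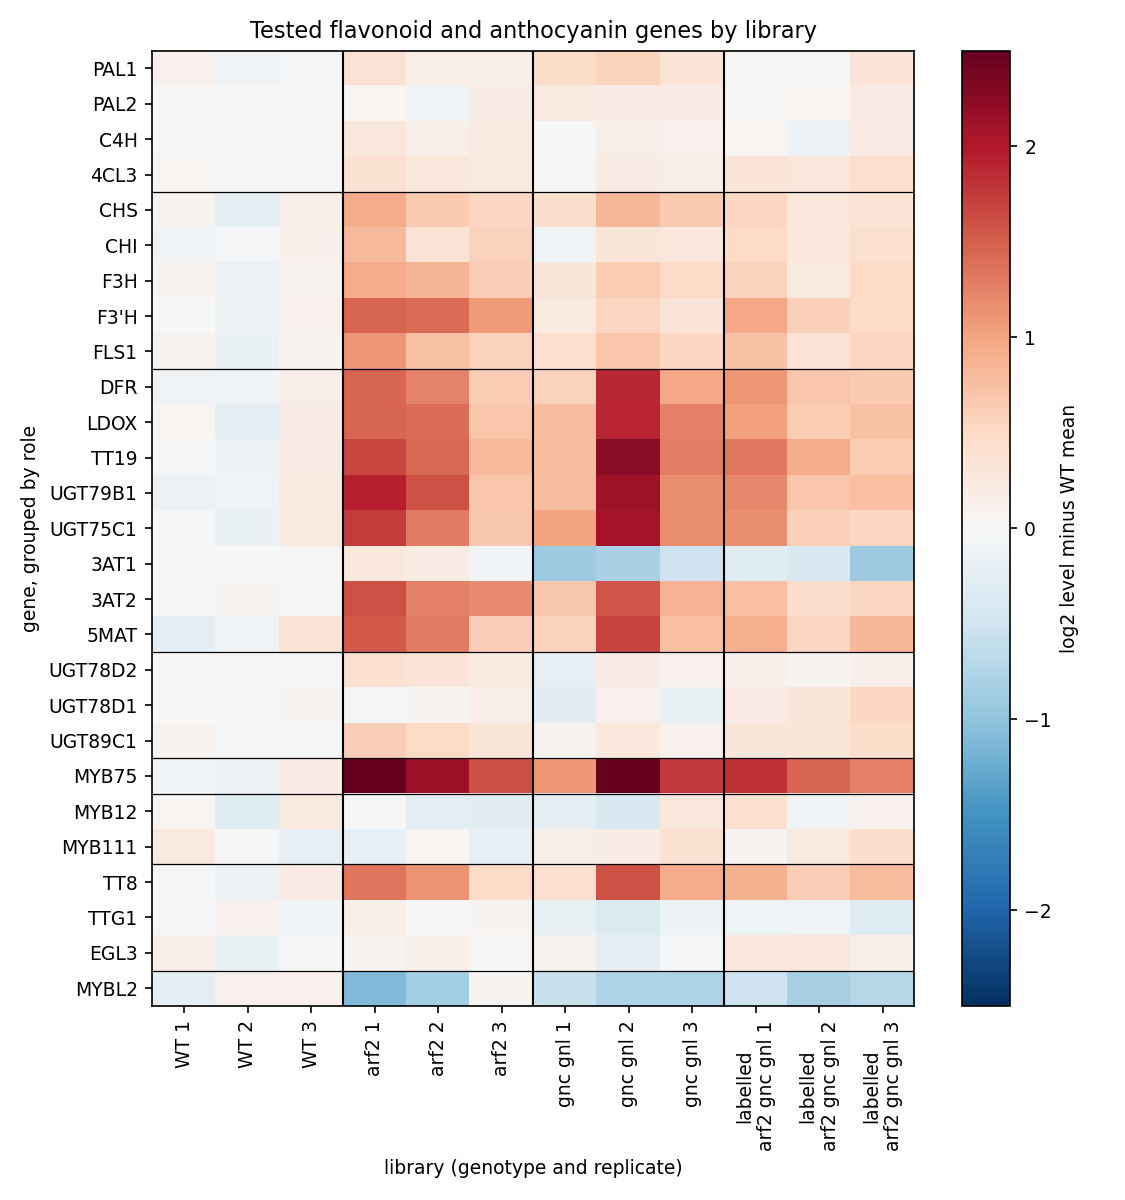
Log2 level of each of the 27 tested genes minus its mean over the 3 WT libraries (colour), with libraries in columns and genes in rows grouped by role; black lines part genotypes and roles. MYB75, TT8 and the late enzymes without 3AT1 are red in the mutant libraries, strongest in arf2 replicate 1 and gnc gnl replicate 2, while 3AT1 is blue in gnc gnl and the labelled libraries and MYBL2 is blue in 8 of 9 mutant libraries.

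The 4 entry enzymes, which also feed lignin and sinapate synthesis, moved little. Of these only 4CL3 (AT1G65060), a 4-coumarate:CoA ligase of the flavonoid branch, rose in arf2 (log2 change 0.30 ± 0.07 SE, adjusted p = 0.0359). Its levels were 103%, 99.1% and 97.6% of the WT mean in WT, 131%, 121% and 117% in arf2, and 102%, 116% and 110% in gnc gnl. The arf2 libraries lay above all WT libraries, and the gnc gnl libraries overlapped WT. PAL1 (AT2G37040), a phenylalanine ammonia-lyase, stood at 108%, 93.9% and 98.4% in WT, 128%, 112% and 111% in arf2, and 137%, 146% and 124% in gnc gnl. It rose in gnc gnl (0.44 ± 0.11, adjusted p = 0.0153) and missed the threshold in arf2 (0.22 ± 0.11, adjusted p = 0.302). A second PAL1 probe gave 0.42 ± 0.20 in gnc gnl, with an adjusted p of 0.158 in a fit of 26214 probes as separate features. PAL2 (AT3G53260) and C4H (AT2G30490) passed in neither mutant, with log2 changes between 0.05 and 0.22.

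All 5 early enzymes rose in arf2, and 3 of them in gnc gnl. The largest early change was in F3'H (AT5G07990), the flavonoid 3'-hydroxylase (TT7) that makes the quercetin and cyanidin pattern of hydroxylation. Its levels were 101%, 92.1% and 108% in WT, 273%, 263% and 211% in arf2, and 116%, 145% and 126% in gnc gnl. Every arf2 library thus lay above every WT and every gnc gnl library. The log2 change in arf2 was 1.31 ± 0.14 (adjusted p = 3.22e-04), and in gnc gnl it was 0.36 ± 0.14 (adjusted p = 0.0808). A second probe of F3'H gave 1.14 ± 0.14 in arf2 (adjusted p = 8.72e-04 in the fit of separate probes) and 0.18 ± 0.14 in gnc gnl. The third probe was well above background on no array.

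Chalcone synthase, the first committed enzyme (CHS, AT5G13930), stood at 104%, 85.1% and 113% in WT, 190%, 158% and 145% in arf2, and 136%, 177% and 156% in gnc gnl. Both mutants lay wholly above WT and overlapped each other. The log2 changes were 0.71 ± 0.14 in arf2 (adjusted p = 0.0141) and 0.64 ± 0.14 in gnc gnl (adjusted p = 0.00839). CHI (AT3G55120), the chalcone isomerase of the next step, stood at 94.3%, 97.6% and 109% in WT, 174%, 126% and 149% in arf2, and 94.3%, 124% and 122% in gnc gnl. It rose in arf2 (0.57 ± 0.13, adjusted p = 0.0334), whereas gnc gnl overlapped WT (0.17 ± 0.13, adjusted p = 0.384).

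F3H (AT3G51240), the flavanone 3-hydroxylase that makes dihydroflavonols, stood at 105%, 90.0% and 106% in WT, 190%, 180% and 153% in arf2, and 123%, 156% and 139% in gnc gnl. The changes were 0.80 ± 0.12 (adjusted p = 0.00413) in arf2 and 0.47 ± 0.12 (adjusted p = 0.0197) in gnc gnl, and a second F3H probe gave 0.84 and 0.52. The lowest arf2 library lay just under the highest gnc gnl library. FLS1 (AT5G08640), the flavonol synthase that draws dihydroflavonols into flavonols, stood at 107%, 89.2% and 105% in WT, 216%, 167% and 149% in arf2, and 133%, 161% and 143% in gnc gnl. It rose by 0.81 ± 0.14 log2 units in arf2 (adjusted p = 0.00866) and by 0.54 ± 0.14 in gnc gnl (adjusted p = 0.0209). Neither mutant overlapped WT.

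**Figure D2:**
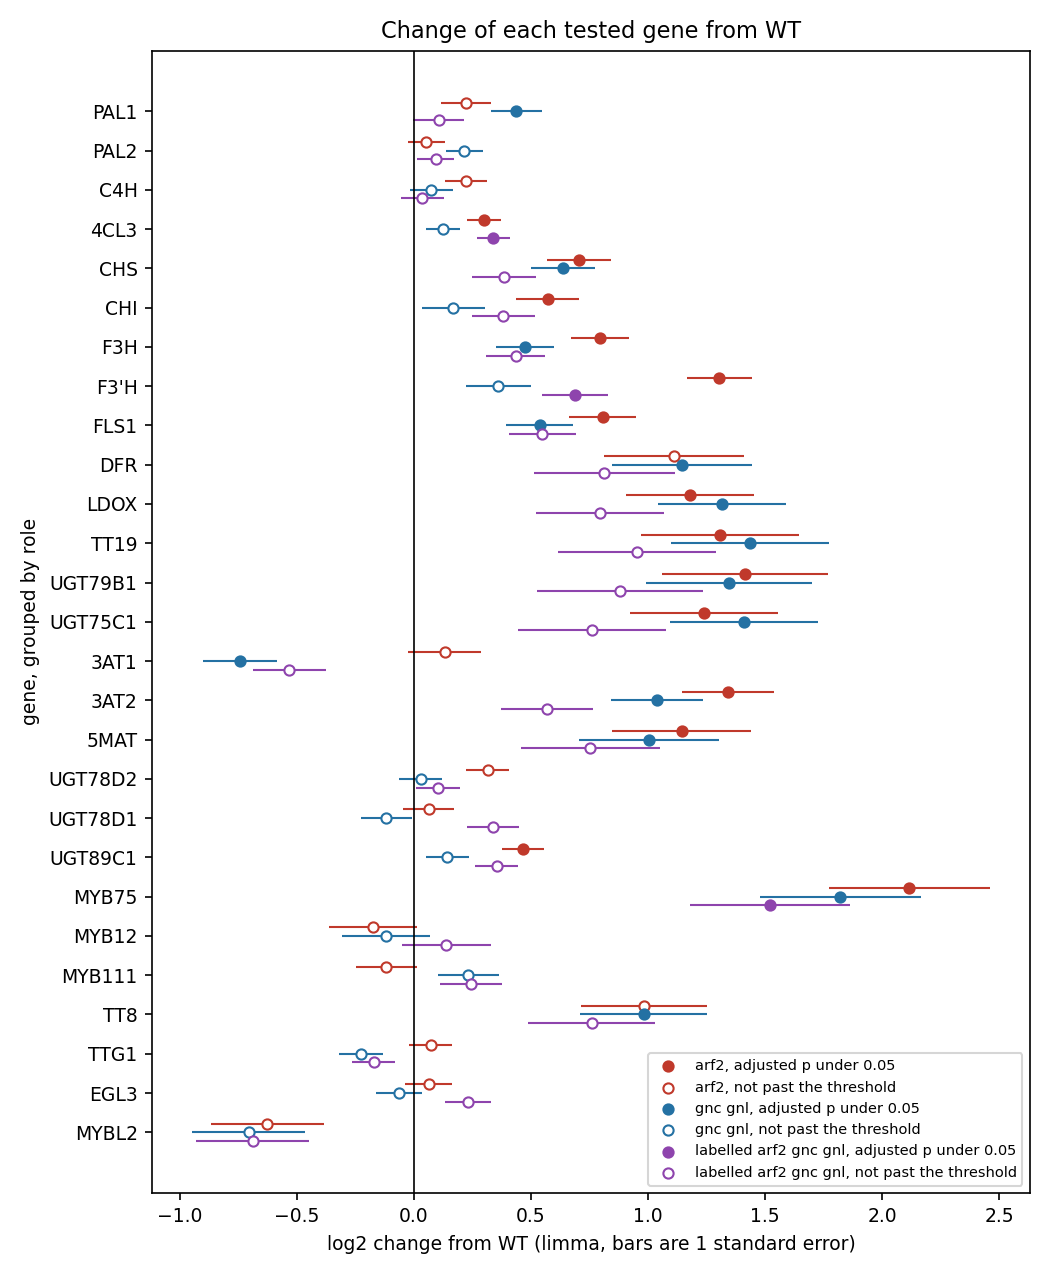
Log2 change from WT of each tested gene (x axis, bars 1 standard error) in arf2, gnc gnl and the libraries labelled arf2 gnc gnl; filled points have an adjusted p under 0.05. The late enzymes other than 3AT1 lie between 0.57 and 1.43 in all 3 comparisons, and F3'H at 1.31 in arf2 and 0.36 in gnc gnl.

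Of the 8 late genes, 6 rose in arf2 and 7 in gnc gnl, in which the eighth, 3AT1, fell on the probe used. DFR (AT5G42800), the dihydroflavonol reductase at the head of the anthocyanin branch, stood at 93.7%, 95.4% and 112% in WT, 274%, 237% and 155% in arf2, and 150%, 369% and 195% in gnc gnl. All 6 mutant libraries lay above WT. The change was 1.14 ± 0.30 in gnc gnl (adjusted p = 0.0194), while the 1.11 ± 0.30 in arf2 missed the threshold (adjusted p = 0.0561). LDOX (AT4G22880), the anthocyanidin synthase, stood at 103%, 85.3% and 114% in WT, 273%, 265% and 162% in arf2, and 171%, 377% and 240% in gnc gnl. It rose by 1.18 ± 0.27 in arf2 (adjusted p = 0.0319) and by 1.32 ± 0.27 in gnc gnl (adjusted p = 0.00723).

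TT19 (AT5G17220), the glutathione S-transferase of anthocyanin deposition, stood at 96.9%, 91.1% and 113% in WT, 320%, 272% and 175% in arf2, and 171%, 477% and 242% in gnc gnl. Its lowest and highest gnc gnl libraries differed more than the lowest differed from WT. The changes were 1.31 ± 0.34 in arf2 (adjusted p = 0.0472) and 1.43 ± 0.34 in gnc gnl (adjusted p = 0.0125). A second TT19 probe gave 1.22 ± 0.28 and 0.88 ± 0.28, with adjusted p of 0.0336 and 0.0441 in the fit of separate probes.

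Both anthocyanin glycosyltransferases of the late set rose in both mutants. UGT79B1 (AT5G54060), which adds xylose, stood at 89.8%, 94.2% and 118% in WT, 386%, 302% and 162% in arf2, and 171%, 433% and 222% in gnc gnl. UGT75C1 (AT4G14090), the 5-O-glucosyltransferase, stood at 97.1%, 88.6% and 116% in WT, 334%, 248% and 159% in arf2, and 201%, 422% and 222% in gnc gnl. No mutant library overlapped WT for either gene. UGT79B1 rose by 1.41 ± 0.35 (adjusted p = 0.0426) in arf2 and 1.35 ± 0.35 (adjusted p = 0.0199) in gnc gnl. UGT75C1 rose by 1.24 ± 0.32 (adjusted p = 0.0447) and 1.41 ± 0.32 (adjusted p = 0.00992).

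Among the acyltransferases, 3AT2 (AT1G03495), which adds a coumaroyl group to the pigment, had the smallest adjusted p of the late set in both mutants. It stood at 98.3%, 105% and 97.3% in WT, 300%, 239% and 228% in arf2, and 160%, 297% and 183% in gnc gnl, rising by 1.34 ± 0.20 log2 units in arf2 (adjusted p = 0.00271) and by 1.04 ± 0.20 in gnc gnl (adjusted p = 0.00458). The malonyltransferase gene 5MAT (AT3G29590) stood at 84.2%, 94.3% and 126% in WT, 288%, 245% and 153% in arf2, and 149%, 321% and 169% in gnc gnl. The lowest library of each mutant lay above the highest of WT. 5MAT rose by 1.14 ± 0.30 in arf2 (adjusted p = 0.0491) and by 1.0 ± 0.30 in gnc gnl (adjusted p = 0.0323).

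The paralogous coumaroyltransferase gene 3AT1 (AT1G03940) gave opposite answers on its probes. On the brighter probe, A_84_P829314, it stood at 97.4%, 100% and 102% in WT, 120%, 114% and 96.0% in arf2, and 53.3%, 57.3% and 69.9% in gnc gnl. That probe fell in gnc gnl (-0.74 ± 0.16, adjusted p = 0.0078) and did not pass in arf2 (0.13 ± 0.16, adjusted p = 0.734). The other probe, A_84_P21760, stood at 74.4%, 110% and 123% in WT, 302%, 245% and 125% in arf2, and 162%, 285% and 391% in gnc gnl. It rose in gnc gnl (1.39 ± 0.35, adjusted p = 0.0182 in the fit of separate probes, chosen after seeing the data), and in arf2 its change was 1.07 ± 0.35 (adjusted p = 0.123). Both probes were well above background on all 12 arrays, so the data give no direction for 3AT1 in gnc gnl.

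**Figure D3:**
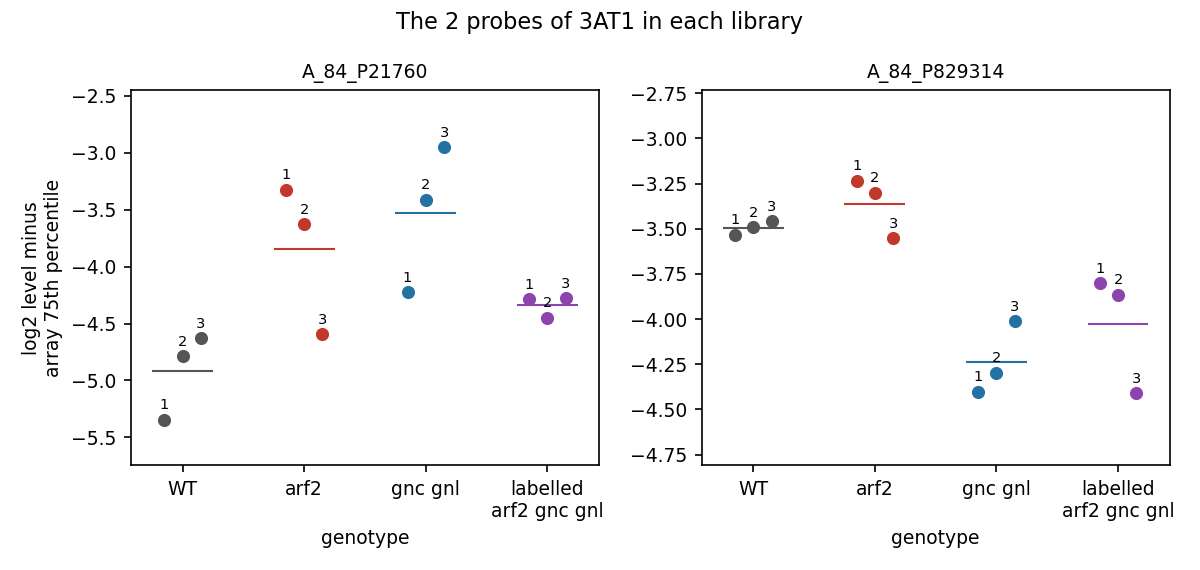
Log2 level minus the array's 75th percentile for the 2 probes of 3AT1 (1 panel each, with separate y axes), points being libraries with their replicate number and bars genotype means. In gnc gnl the left probe lies above WT and the right probe below it.

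In arf2 and in gnc gnl the late genes varied between libraries in much the same order. For all 8 of them, on the probes used, arf2 replicate 1 was the highest and replicate 3 the lowest arf2 library. In gnc gnl, replicate 1 was the lowest for all 8 and replicate 2 the highest for 7. The order was not particular to the late genes. Among the 5 early enzymes, arf2 replicate 1 was the highest for 5 and replicate 3 the lowest for 4. In gnc gnl, replicate 1 was the lowest and replicate 2 the highest for all 5. How many of all tested genes showed this order was not read. Averaged over the 7 late genes without 3AT1, the log2 level above the WT mean was 1.63, 1.36 and 0.76 in arf2 replicates 1, 2 and 3, and 0.74, 1.93 and 1.06 in gnc gnl replicates 1, 2 and 3. The seed markers, at -0.13, -1.75 and -3.15 in the same gnc gnl replicates, were highest in replicate 1, where the late genes were lowest. In arf2 the seed markers read -0.21, -0.05 and -0.49, lowest in replicate 3 like the late genes.

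The 3 tested flavonoid glycosyltransferases outside the late set changed less. UGT89C1 (AT1G06000), a flavonol 7-O-rhamnosyltransferase, stood at 106%, 96.4% and 97.6% in WT, 152%, 141% and 123% in arf2, and 104%, 120% and 108% in gnc gnl. It rose in arf2 (0.47 ± 0.09, adjusted p = 0.0147) and overlapped WT in gnc gnl (0.14 ± 0.09, adjusted p = 0.279). UGT78D2 (AT5G17050), the flavonoid 3-O-glucosyltransferase that serves both flavonols and anthocyanins, stood at 102%, 100% and 98.1% in WT, 132%, 125% and 117% in arf2, and 87.2%, 113% and 108% in gnc gnl. Its change in arf2 missed the threshold (0.32 ± 0.09, adjusted p = 0.0765), although no arf2 library overlapped WT. UGT78D1 (AT1G30530), the flavonol 3-O-rhamnosyltransferase, read 0.06 ± 0.11 in arf2 and -0.12 ± 0.11 in gnc gnl, overlapping WT in both.

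Among the regulators, the largest change was in MYB75 (AT1G56650), the activator of late anthocyanin genes. It stood at 95.8%, 90.2% and 116% of the WT mean in WT, 607%, 438% and 307% in arf2, and 212%, 613% and 340% in gnc gnl. No mutant library overlapped WT. The change was 4.34-fold in arf2 (log2 2.12 ± 0.34, adjusted p = 0.00519) and 3.53-fold in gnc gnl (1.82 ± 0.34, adjusted p = 0.00458). Under the normexp background correction the log2 changes were 1.43 and 1.12, and neither passed. Its libraries fell in the order of the late genes, with replicate 1 highest in arf2 and replicate 2 highest in gnc gnl. Most early enzymes shared that order.

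The other 3 anthocyanin activators, MYB90 (PAP2, AT1G66390), MYB113 (AT1G66370) and MYB114 (AT1G66380), did not reach well above background anywhere and were not tested. TT8 (AT4G09820), the bHLH partner of these MYB proteins, stood at 96.9%, 89.9% and 115% in WT, 252%, 217% and 141% in arf2, and 134%, 301% and 191% in gnc gnl. All mutant libraries lay above WT. It rose in gnc gnl (0.98 ± 0.27, adjusted p = 0.0240), and the change in arf2 was of the same size but missed the threshold (0.98 ± 0.27, adjusted p = 0.0609). Under the normexp correction the TT8 value in gnc gnl was -0.20.

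The remaining members of the activator complex passed in neither mutant against WT. The bHLH gene EGL3 (AT1G63650) stood at 112%, 89.4% and 100% in WT, 105%, 109% and 99.4% in arf2, and 106%, 85.9% and 96.3% in gnc gnl. TTG1 (AT5G24520), the WD40 protein shared with trichome and seed coat development, stood at 97.3%, 108% and 94.8% in WT, 111%, 100% and 105% in arf2, and 88.5%, 77.5% and 91.3% in gnc gnl. The gnc gnl libraries of TTG1 all lay below WT, at a log2 change of -0.22 ± 0.09 (adjusted p = 0.10). GL3 (AT5G41315) was well above background on 2 arrays, gnc gnl replicate 1 and replicate 3 labelled arf2 gnc gnl, and was not tested.

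MYBL2 (AT1G71030), the repressor that competes with the MYB activators for bHLH partners, stood at 85.2%, 108% and 108% in WT, 46.6%, 55.8% and 105% in arf2, and 67.9%, 58.4% and 58.3% in gnc gnl. In arf2, replicates 1 and 2 were below WT and replicate 3 was at the WT level. The gnc gnl libraries all lay below WT. Neither change passed, at -0.63 ± 0.24 (adjusted p = 0.184) in arf2 and -0.70 ± 0.24 (adjusted p = 0.0548) in gnc gnl. In a fit of gnc gnl and WT alone, and among probes well above background on all arrays, the gnc gnl value passed the threshold.

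**Figure D4:**
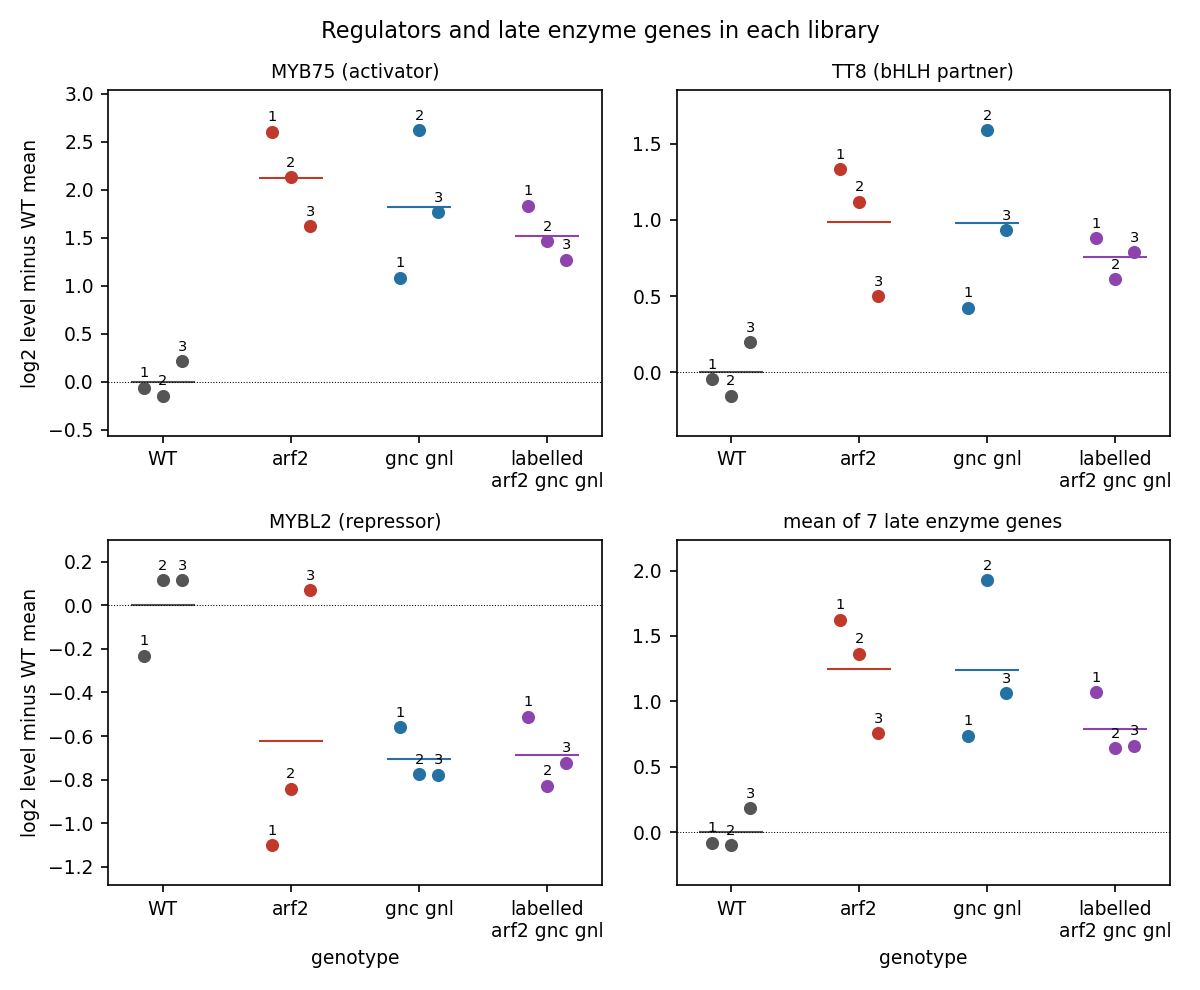
Log2 level minus the WT mean of MYB75, TT8 and MYBL2, and the mean of 7 late enzyme genes, in each library (points with replicate numbers, bars being genotype means). In arf2 and in gnc gnl the replicates of MYB75 and TT8 fall in the order of the late genes; MYBL2 in arf2 is at the WT level in replicate 3 alone.

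The flavonol activators did not pass in either mutant, including arf2, in which all 5 early enzymes rose. MYB12 (AT2G47460) stood at 104%, 81.4% and 118% in WT, 101%, 84.3% and 82.0% in arf2, and 85.3%, 76.8% and 119% in gnc gnl. MYB111 (AT5G49330) stood at 118%, 98.3% and 86.2% in WT, 87.3%, 104% and 86.6% in arf2, and 110%, 113% and 130% in gnc gnl. Both overlapped WT in both mutants. MYB12 changed by -0.17 ± 0.19 (adjusted p = 0.699) in arf2 and -0.12 ± 0.19 (adjusted p = 0.685) in gnc gnl, and MYB111 by -0.12 ± 0.13 (adjusted p = 0.715) and 0.23 ± 0.13 (adjusted p = 0.219). MYB11 (AT3G62610) was well above background on no array.

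The seed coat branch makes proanthocyanidins in the developing seed. Its 4 members, the anthocyanidin reductase gene BAN (AT1G61720), the laccase gene TT10 (AT5G48100), the transporter gene TT12 (AT3G59030) and the MYB gene TT2 (AT5G35550), were well above background on no array of any genotype, the mutants with raised seed markers included. The same held for the arabinosyltransferase gene UGT78D3 (AT5G17030). No fold is given for these genes.

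The direct comparison of arf2 with gnc gnl asked which members differed between the mutants. Of the 27, 6 were higher in arf2 and none lower, where 36.4% of all tested genes changed (16.9% higher and 19.5% lower in arf2), so the share of members called, 22.2%, was below that of all genes. F3'H stood apart most clearly, 1.92-fold higher in arf2 (log2 0.94 ± 0.14, adjusted p = 6.61e-04, and 0.96 ± 0.14 on a second probe). CHI was higher by 0.40 ± 0.13 (adjusted p = 0.0375), UGT89C1 by 0.32 ± 0.09 (adjusted p = 0.0182), UGT78D2 by 0.29 ± 0.09 (adjusted p = 0.0322) and TTG1 by 0.30 ± 0.09 (adjusted p = 0.0288). For each of these 5 genes all arf2 libraries lay above all gnc gnl libraries, a pattern that 21.2% of all tested genes showed. Over all members, 8 lay wholly above gnc gnl and 1 wholly below, MYB111 (-0.35 ± 0.13, adjusted p = 0.0587), a pattern of 24.3% of all tested genes. The second UGT89C1 probe gave 0.21 ± 0.11 (adjusted p = 0.149 in the fit of separate probes). The sixth was 3AT1 (0.87 ± 0.16, adjusted p = 0.0019), whose other probe gave -0.32 ± 0.35.

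For the other 7 late genes no difference between the mutants was found in the main fit. Of these, 3AT2 was higher in arf2 in all 12 fits that left out 1 library (log2 0.12 to 0.57) and was called in 1. UGT75C1 and 5MAT kept their sign in 10 of the 12 and were called in none. For DFR, LDOX, TT19 and UGT79B1 the intervals were wide. The 95% interval of arf2 minus gnc gnl ran from -0.69 to 0.63 for DFR, -0.74 to 0.47 for LDOX, -0.87 to 0.62 for TT19 and -0.72 to 0.85 for UGT79B1, in log2 units. MYB75 differed by 0.30 (-0.46 to 1.05) and TT8 by 0.0020 (-0.59 to 0.60). Each of these 6 intervals reached at least 0.46 log2 units either way. The count of 6 fell to 2 without arf2 replicate 1, to 3 without gnc gnl replicate 1 and to 2 in a fit of these genotypes alone. It was 0 with slide as a block, and no slide held both. F3'H and 3AT1 were called in each of the 12 fits that left out 1 library. For 3AT1 this holds for the probe used, whose sign the other probe reversed.

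In the libraries labelled arf2 gnc gnl few members were called. Against WT, 3 of 27 members rose and none fell, where 2.27% of all tested genes changed (1.33% higher and 0.943% lower), and the median log2 change was 0.38 over the members and -0.0075 over all tested genes. The 3 were F3'H, 4CL3 and MYB75. F3'H stood at 195%, 152% and 142% of the WT mean (0.69 ± 0.14, adjusted p = 0.0317), and its second probe did not pass (0.51 ± 0.14, adjusted p = 0.0923 in the fit of separate probes). 4CL3 stood at 125%, 122% and 133% (0.34 ± 0.07, adjusted p = 0.0366), and MYB75 at 356%, 276% and 241% (1.52 ± 0.34, adjusted p = 0.0471). These libraries lay wholly above WT for 18 members and wholly below for 3, patterns that 14.5% and 15.4% of all tested genes showed.

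None of the 8 late genes passed there, although 7 lay above WT in every labelled library, with log2 changes of 0.57 (3AT2) to 0.95 (TT19). Replicate 1 was the highest labelled library for all 8. The 3 members that lay below WT in every labelled library were 3AT1 on the probe used (80.9%, 77.3% and 53.1%), MYBL2 (70.2%, 56.4% and 60.6%) and TTG1 (93.0%, 94.6% and 79.6%). The count of 3 calls depended on single libraries: it was 0 without any 1 of the 3 WT libraries or without replicate 1 or 2 of the labelled libraries, and 1 without replicate 3 of them or without arf2 replicate 2, and 5 without arf2 replicate 3. With slide as a block it was 0.

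Against arf2, the labelled libraries were lower in 3 of 27 members and higher in none, where 8.96% of all tested genes changed (4.27% higher and 4.69% lower). These were F3'H (-0.62 ± 0.14, adjusted p = 0.0260), 3AT2 (-0.77 ± 0.20, adjusted p = 0.0359) and 3AT1 (-0.66 ± 0.16, adjusted p = 0.0296, and -0.49 ± 0.35 on its other probe). 3AT2 stood at 168%, 135% and 143% of the WT mean in the labelled libraries, below the lowest arf2 library at 228%. None was called without arf2 replicate 1 or 2, without labelled replicate 2 or 3, or within slide 2, which holds 2 arrays of each. Against gnc gnl, 1 member was higher and none lower, where 11.7% of all tested genes changed (5.28% higher and 6.39% lower). That gene was UGT78D1, at 115%, 123% and 143% of the WT mean in the labelled libraries and 83.2%, 108% and 87.4% in gnc gnl (0.46 ± 0.11, adjusted p = 0.0245). It was not called without labelled replicate 2 or 3 or without gnc gnl replicate 1 or 3. Nor was it called within slide 3, which holds the 3 gnc gnl arrays and 1 labelled array that was assumed to vary like them.

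Genes around the pathway were read from 5 further lists. Of 16 tested genes among 17 other flavonoid and phenylpropanoid genes, 1 rose in arf2, and 2 rose and 2 fell in gnc gnl. With 5.69% of all tested genes changed in arf2 and 24.6% in gnc gnl, these shares were near those of all genes. PAL3, a minor phenylalanine ammonia-lyase, stood at 103%, 97.4% and 99.4% in WT, 136%, 140% and 134% in arf2, and 201%, 154% and 173% in gnc gnl. PAL3 rose by 0.45 ± 0.10 in arf2 (adjusted p = 0.0223) and by 0.81 ± 0.10 in gnc gnl (adjusted p = 5.03e-04). PAL4, another ammonia-lyase gene, fell by 0.34 ± 0.08 log2 units in gnc gnl (adjusted p = 0.0106), against a log2 change of 0.44 for PAL1 in the same libraries.

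The lignin and sinapate branch, which shares the entry enzymes, held no call among 16 genes in arf2, with a median log2 change of 0.08. In gnc gnl, 4 rose and 1 fell, where 24.6% of all tested genes changed. The methyltransferase gene OMT1 rose by 0.49 ± 0.07 (adjusted p = 9.18e-04), with libraries at 133%, 142% and 147% of the WT mean, and the cinnamyl alcohol dehydrogenase gene CAD5 by 0.42 ± 0.08 (adjusted p = 0.00553). Among 15 tested genes of other repressors and of flavonoid enzyme turnover, none passed in arf2, and 1 rose and 2 fell in gnc gnl, again a share near the 24.6% of all genes. TRY, an R3-MYB protein known as an inhibitor of trichome formation, fell by 0.94 ± 0.12 (adjusted p = 7.58e-04) with libraries at 58.3%, 45.5% and 53.1%, whereas LBD38, known as a repressor of MYB75 and MYB90 in nitrogen responses, rose by 0.95 ± 0.18 (adjusted p = 0.00459) with libraries at 181%, 170% and 234%.

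Of 10 genes of light and UV-B input, 2 rose in arf2 and 4 in gnc gnl, and none fell, where 2.49% and 12.6% of all tested genes rose. The B-box gene LZF1, a positive factor in light signalling, rose by 0.41 ± 0.09 (adjusted p = 0.0268) in arf2 and 0.32 ± 0.09 (adjusted p = 0.0279) in gnc gnl. The light stress gene ELIP1 rose by 0.56 ± 0.15 (adjusted p = 0.0478) in arf2. RUP1, a negative regulator of UV-B signalling, rose by 0.51 ± 0.13 (adjusted p = 0.0169) in gnc gnl. Of 7 seed coat and trichome partners of the complex 4 were tested. None passed in arf2, and MYB5, a seed coat and trichome MYB gene, fell in gnc gnl (-0.60 ± 0.20, adjusted p = 0.0452), where 11.9% of all tested genes fell.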

How the data were processed

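The labels' genotype set the groups. The deposited scanner files give a linear intensity per spot. Background subtraction and detrending were done array by array, per the file headers, with Agilent Feature Extraction 10.7.3.1, per the submitters' processing notes. The series value table was identical to these files (0 cells differed) and gave no alternative of its own.

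Outlier spots were left out, spots of 1 probe averaged, and log2 intensity minus the array's 75th percentile analysed. Of 43603 probes, 34285 matched a locus in an annotation of assembly TAIR10.1, through their RefSeq accession or, failing that, a locus name. Coordinates are left out because the array predates that build. A gene is its probe with the highest mean over 12 arrays. It was tested if well above background in all 3 libraries of some genotype, with 2 or more values in each (18976 genes). The model, with a mean for each genotype and 8 residual degrees of freedom, was run on all 12 arrays in limma 3.58.1 (lmFit, eBayes) under R 4.3.3. Percentages of the WT mean are taken against the mean of the WT log2 levels. Every adjusted p is from limma, two-sided, Benjamini-Hochberg over all tested genes of a comparison, with 0.05 as threshold; ± values are standard errors. The fit was tested on simulated data. Figures used matplotlib 3.10.9.

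The members and gene lists were chosen with earlier results of these data known. Values of every library are given for members called in arf2 or gnc gnl against WT or each other and for the regulators. From other lists the calls with the smallest p were named, up to 4 in arf2 and up to 2 in gnc gnl. Alternatives were quantile normalization, normexp background correction (offset 50, on median spot signals), outlier spots kept, other filters and probe rules, other sets of arrays, replicate number or slide as a block, fits within slides, and leaving out each array. No sequence is printed, since no sequence table was used here.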

Additional observations from a re-analysis of the deposited data

How the results depend on the processing

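Counts of members called are given by comparison, over 27 members (37 with no filter on dim probes). For arf2 against WT, 14 became 8 with no filter on dim probes, 1 under normexp and 7 without the labelled libraries. With slide as a block that comparison rests on arf2 replicate 1 alone, at a median log2 change of 0.80. For gnc gnl against WT, 14 became 4 under normexp and 0 with slide as a block. The labelled libraries against WT gave 3, which became 1 with the mean of all probes, 0 with no filter, 0 under normexp, 10 with only the genotypes compared and 0 with slide as a block. The 6 of arf2 against gnc gnl became 11 with no filter, 2 under normexp, 2 with only the genotypes compared and 0 with slide as a block. The 3 of the labelled libraries against arf2 became 8 with no filter, 0 under normexp, 1 with only the genotypes compared, 0 within slide 2 and 0 with slide as a block. The 1 call against gnc gnl became 0 under normexp, with only the genotypes compared, within slide 3 (3 arrays against 1) and with slide as a block. The cause of these moves was not tested. The share of all tested genes called was read in the main fit only. The moves, here and on leaving out a library, are thus not read as particular to the members. Leaving out 1 library gave 5 to 17 calls in arf2, 7 to 16 in gnc gnl, 0 to 5 in the labelled libraries, 2 to 8 for arf2 against gnc gnl, 0 to 4 for the labelled libraries against arf2 and 0 to 1 against gnc gnl.

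The replicate numbers were not taken to pair the samples. Of 18 pairs of same-numbered libraries, 7 correlated over 0.1 in their deviations from the genotype means, with correlations from -0.37 to 0.37. Pairs with different numbers were not compared, so these values cannot decide whether the samples were paired. With the replicate number as a block, 7 members were called in arf2 against WT and 1 in the labelled libraries against WT. Signs reversed for TT8 in gnc gnl under normexp (-0.20), for 3AT1 in gnc gnl with the mean of its probes (0.32), with slide as a block (0.025) and on its other probe (1.39), for 3AT1 in arf2 against gnc gnl on that probe (-0.32), and for 4CL3 in the labelled libraries against arf2 with the mean of its probes (-0.28), one of which was well above background on no array. No other called change of a member reversed its sign under the alternatives run.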
